A study of Mus musculus with 36 samples.

Results

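The immediate early transcription factors described here are 10 mouse genes, Egr1, Fos, Fosb, Jun, Junb, Jund, Ier2, Ier3, Atf3 and Myc, taken from 37325 genes on a liver expression array by the gene symbol printed for each probe. They were represented by 16 of 56605 probes, and all 10 were among the 24250 genes tested. The choice was made with it already known that Egr1 stood at the top of the response of control livers to CL316243, so that response is given below as a description with no test. The study measured RNA from the livers of male C57Bl/6J mice on 36 one-colour arrays, 6 for each of 6 groups. AAKO is the submitters' label for mice without ATGL, the enzyme that starts the breakdown of stored triglyceride, in white fat, and control mice carry the label CTRL. The promoter or Cre line behind the deletion, the ages and the genotype of the controls are not given in the sources used here. Of each genotype, 1 group had food at will, 1 was without food for 24 h, and 1 had food and received CL316243, which activates the beta 3 adrenergic receptor, by gavage at 3 mg/kg at ZT10. All were killed at ZT16, where ZT0 is lights on. By the labels, both fed groups come from experiment 2 and the remaining 4 groups from experiment 1, so a difference between a fed group and any other cannot be told apart from the experiment, and gavage is stated only for the CL316243 groups. Any rise or fall against fed livers given below includes a difference between the experiments, if there was one.

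Immediate early genes are transcribed within minutes of a stimulus from factors already present in the cell, without new protein synthesis, and their transcripts are short-lived. Growth factor signals reach many of them through the ERK kinases, serum response factor and its ternary complex partners, and cAMP signals reach them through CREB bound to cAMP response elements. In liver they are known for their response to partial hepatectomy and to cytokines. Egr1 is a zinc finger factor. Fos and Fosb pair with Jun, Junb or Jund to form AP-1, and Atf3 is a stress-induced factor of the bZIP class. Ier2 and Ier3 are immediate early genes that are not DNA-binding factors of these families; Ier3 is known as a regulator of survival signalling. Myc is a bHLH factor that pairs with Max.

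Upstream sequences are shown because CREB sites are a textbook link between cAMP and this class of gene. RefSeq's promoter table for GRCm38.p6 held 7 of the 10 members (not Egr1, Ier2 or Myc). The 250 bases before the annotated start were searched on both strands, and for TATAA on the gene's strand. TGACG, the core of the cAMP response element, was found in 4 of the 7, Atf3, Fos, Fosb and Junb, against 17.8% of 32851 promoters of the same length. The full element TGACGTCA, which contains that core, was in none of the 7 and in 1.55% of all, and the AP-1 element TGACTCA was in none of the 7 and in 4.46% of all. The GC box GGGCGG was in 5 of the 7 and in 32.7% of all, and TATAA was in Fos and Ier3 and in 16% of all. The CArG box that serum response factor binds and the E-box CACGTG were in none of the 7, against 1.47% and 6.02% of all promoters. These are matches of letters in a short window and not sites shown to be bound. The sequences below run 5′ to 3′ along the gene's strand and end at the base before the start, with TGACG, or its reverse complement CGTCA in Atf3, in capitals. Jund is shown as a member with no match. The positions are Atf3 chr1:191183334-191183583 (minus strand), Fos chr12:85473640-85473889 (plus strand), Fosb chr7:19310046-19310295 (minus strand), Junb chr8:84978749-84978998 (minus strand) and Jund chr8:70697489-70697738 (plus strand).
Atf3: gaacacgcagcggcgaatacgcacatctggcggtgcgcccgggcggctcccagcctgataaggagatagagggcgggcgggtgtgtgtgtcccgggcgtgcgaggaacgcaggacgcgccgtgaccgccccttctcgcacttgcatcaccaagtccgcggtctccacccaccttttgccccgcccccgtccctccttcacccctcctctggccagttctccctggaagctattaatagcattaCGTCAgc
Fos: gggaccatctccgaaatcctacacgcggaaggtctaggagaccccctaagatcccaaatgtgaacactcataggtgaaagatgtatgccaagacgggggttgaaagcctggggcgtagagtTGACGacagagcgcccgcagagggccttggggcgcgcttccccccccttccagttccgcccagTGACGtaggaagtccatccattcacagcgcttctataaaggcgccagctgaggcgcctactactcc
Fosb: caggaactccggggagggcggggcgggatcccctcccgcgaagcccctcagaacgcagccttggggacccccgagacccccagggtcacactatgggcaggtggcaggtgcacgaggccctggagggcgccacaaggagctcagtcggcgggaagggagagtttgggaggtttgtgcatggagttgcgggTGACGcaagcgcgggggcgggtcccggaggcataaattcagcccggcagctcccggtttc
Junb: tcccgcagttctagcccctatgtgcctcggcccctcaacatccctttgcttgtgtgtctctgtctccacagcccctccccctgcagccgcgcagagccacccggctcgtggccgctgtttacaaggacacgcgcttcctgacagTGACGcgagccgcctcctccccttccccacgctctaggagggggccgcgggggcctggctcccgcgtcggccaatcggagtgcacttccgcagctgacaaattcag
Jund: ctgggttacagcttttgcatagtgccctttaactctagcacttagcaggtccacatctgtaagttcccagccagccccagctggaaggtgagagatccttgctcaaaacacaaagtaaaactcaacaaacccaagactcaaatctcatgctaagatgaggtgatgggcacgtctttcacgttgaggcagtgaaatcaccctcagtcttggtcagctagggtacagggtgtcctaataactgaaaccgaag
In Fos the matches lie 129 to 125 and 66 to 62 bases before the start, and a TATAA lies at 33 to 29. In Junb the match lies 106 to 102 bases before the start, in Fosb 60 to 56, and in Atf3 7 to 3.

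Levels are log2 signals after each array was divided by its own 75th percentile, so 0 is the signal of that percentile, and the level of 1 gene's probe cannot be set against another's. Differences carry the standard error of a limma fit over all 36 arrays with wash batch as a term, and a gene was called when its Benjamini-Hochberg adjusted p over the 24250 genes was under 0.05, two-sided. Every member's main probe was well above background on all 36 arrays. Each array had between 33126 and 37200 probes well above background, and the precision is limited by the 6 arrays of a group. Hepatocyte markers were high on every array (mean of 6 markers between 8.11 and 8.49), as the liver label has it. The labels do not say in words that each array is a separate animal, so p-values measure the spread between these samples. In whole liver, a change of RNA per cell and a change in the number of cells of a type cannot be told apart.

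Of the 10 members, 8 had their highest mean level in fasted AAKO liver, and Egr1 and Junb had theirs after CL316243. Of the 10, 9 were called higher in AAKO than in CTRL when fasted and none lower, where 49.3% of all genes tested were called, 21.3% higher and 28% lower. Their median difference was 1.56, beside -0.04 over all genes. In fed livers, taken from mice of the same 2 genotypes, none of the 10 was called by limma, against a background of 0.0784%, 0 had an unadjusted p under 0.05, and the median difference was -0.07. After CL316243 the members divided: of the 9 other than Egr1, 5 were higher and 1 was lower in AAKO, against 13.4% and 11.3% of all genes (24.8% in all). Egr1 was picked out in the contrast of CTRL CL316243 with CTRL fed arrays, so its differences from these groups are given below with no test. The count in fed livers includes it.

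**Figure D1:**
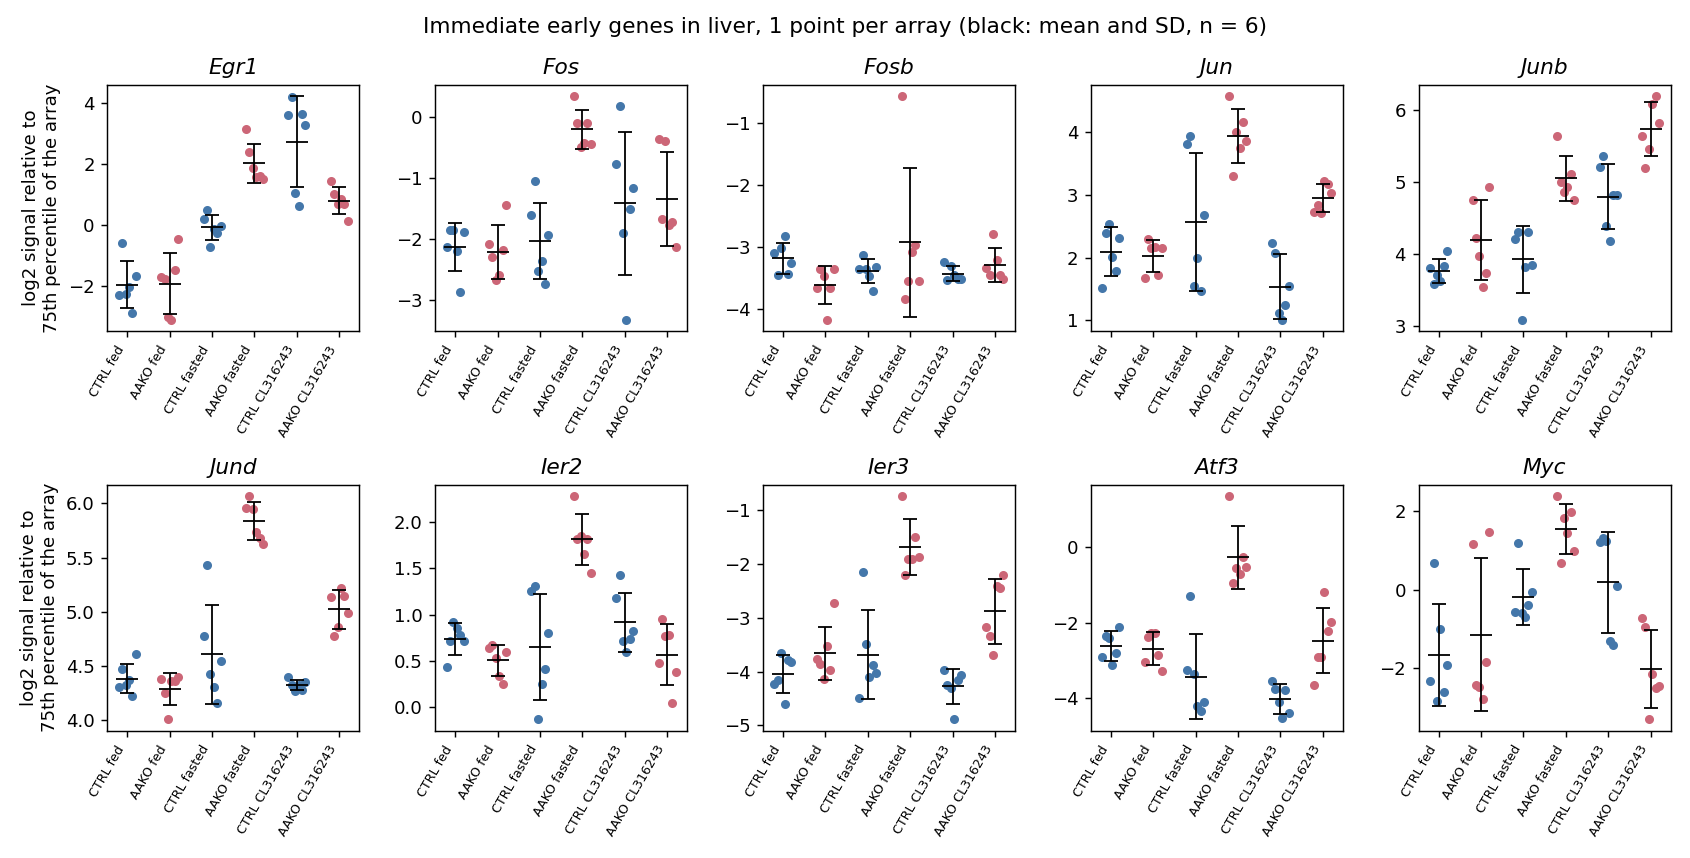
Level of each member on every array, on the log2 scale with the array's 75th percentile at 0, with the mean and SD of each group in black (n = 6 arrays, CTRL in blue, AAKO in red). AAKO fasted has the highest mean for 8 of the 10 genes, the exceptions being Egr1 (CTRL CL316243, 2.72) and Junb (AAKO CL316243, 5.74).

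Egr1 was read by a probe on the plus strand of chromosome 18 (35024395 to 35024454, mm9, the build of the array design). Its level ran from -2.89 through a median of -2.14 to -0.60 on CTRL fed arrays, and from -3.10 through -1.74 to -0.46 on AAKO fed arrays. It ran from -0.72 through -0.09 to 0.50 on CTRL fasted arrays and from 1.52 through 1.74 to 3.14 on AAKO fasted arrays. After CL316243 it ran from 0.62 through 3.43 to 4.18 in CTRL and from 0.12 through 0.77 to 1.45 in AAKO. The fed groups overlapped each other and were the lowest, the fasted AAKO arrays all exceeded the fasted CTRL ones, and the CTRL CL316243 arrays were the most scattered of the 6 groups. In that group replicates 3 and 4 stood at 1.06 and 0.62 and the other 4 between 3.26 and 4.18. Fasted AAKO livers held 4.26-fold more Egr1 signal than fasted CTRL livers (2.09 ± 0.49, limma adjusted p = 0.000656). After CL316243 the order was turned, with AAKO 3.72-fold lower (-1.90 ± 0.49). That value uses the CTRL CL316243 arrays on which the gene had been picked out, and its groups overlapped. It was -1.99 and -1.88 within wash batches 1 and 2.

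Egr1 was higher in fasted than in fed CTRL livers by 1.88 ± 0.49. This is given with no test, because the CTRL fed arrays entered the contrast in which the gene was picked out. None of the other 9 members was called in that comparison, where 43.3% of all genes were called (20.9% higher and 22.4% lower). Within wash batch 1 alone Egr1 differed by 1.29, and Atf3 was called lower (-1.32, limma adjusted p = 0.0211). In AAKO Egr1 rose by 3.94 ± 0.49, 15.3-fold (limma adjusted p = 2.46e-08). The difference between these responses, the genotype by fasting interaction, was 2.06 ± 0.70, and an experiment effect shared by both genotypes cancels in it. It also uses the CTRL fed arrays and is given with no test. It was 0.96 within wash batch 2. CL316243 raised Egr1 in AAKO by 2.75 ± 0.49 (limma adjusted p = 6.29e-05), and in CTRL, where it was chosen, the fitted difference was 4.67 ± 0.49, with every treated array above every fed one.

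Fos (chromosome 12, 86818118 to 86818177, plus strand, mm9), the AP-1 partner of the Jun proteins, was at -0.49 on the lowest, -0.26 on the median and 0.35 on the highest AAKO fasted array. CTRL fasted arrays ran from -2.73 through -2.14 to -1.05, CTRL fed arrays from -2.87 through -2.01 to -1.85, and AAKO fed arrays from -2.67 through -2.23 to -1.43. The AAKO fasted arrays stood above all arrays of these 3 groups, which overlapped one another. The genotype difference when fasted was 1.84 ± 0.38, 3.57-fold (limma adjusted p = 0.000136), and fasting raised Fos in AAKO by 2.01 ± 0.38 (limma adjusted p = 2.3e-05) against 0.10 ± 0.38 in CTRL (limma adjusted p = 0.859). The interaction was 1.91 ± 0.53 (limma adjusted p = 0.00541). After CL316243 the arrays of both genotypes were scattered, from -3.32 to 0.18 in CTRL and from -2.13 to -0.35 in AAKO, and the genotypes were not called different (0.12 ± 0.38). The CTRL array lowest in Fos, replicate 4, was also the lowest in Egr1.

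Fosb (chromosome 7, 19888168 to 19888227, minus strand, mm9), a close relative of Fos, had the smallest difference of the 10 between fasted genotypes. AAKO fasted replicate 1 was at -0.56, and every other array lay between -4.17 and -2.78. The genotype difference when fasted was not called (0.46 ± 0.28, limma adjusted p = 0.18) and was 0.01 without that array. Fasting raised it in AAKO by 0.69 ± 0.28 (limma adjusted p = 0.0332), a call that was lost without that array (0.24), without AAKO fed replicate 1 (0.64) or without AAKO fed replicate 4 (0.61). It was also lost with normexp background correction (0.27), with slide as a factor (0.58), within wash batch 1 (0.12), with no filter on dim probes and in a fit of the groups compared alone. The other Fosb probe was not well above background on any array.

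The 3 Jun genes encode the AP-1 subunits that bind DNA with or without Fos. Jun (chromosome 4, 94716928 to 94716987, minus strand, mm9) ran from 3.30 through 3.93 to 4.58 on AAKO fasted arrays and from 1.46 through 2.34 to 3.95 on CTRL fasted arrays. The groups overlapped, because CTRL fasted replicates 1 and 2 stood at 3.82 and 3.95 and the other 4 at 2.68 or below. Jun was 2.58-fold higher in AAKO (1.37 ± 0.31, limma adjusted p = 0.000465), and the difference was 0.91 and not called within wash batch 2, which held both of those CTRL arrays. After CL316243 it ran from 1.01 through 1.39 to 2.24 in CTRL and from 2.72 through 2.94 to 3.23 in AAKO, with no overlap (1.46 ± 0.31, 2.76-fold, limma adjusted p = 0.000709). Fed arrays ran from 1.52 to 2.54 in CTRL and from 1.68 to 2.30 in AAKO.

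Jund (chromosome 8, 73224302 to 73224361, plus strand, mm9), the Jun family member usually described as constitutive, had the smallest standard error of the 10. It ran from 5.63 through 5.85 to 6.07 on AAKO fasted arrays and from 4.78 through 5.06 to 5.22 on AAKO CL316243 arrays. CTRL CL316243 arrays ran from 4.27 to 4.40, CTRL fed arrays from 4.23 to 4.61, AAKO fed arrays from 4.01 to 4.40 and CTRL fasted arrays from 4.16 to 5.43. The AAKO fasted arrays lay above every other array of the series, and the highest of the rest was CTRL fasted replicate 2. The genotype difference was 1.23 ± 0.13 when fasted (2.35-fold, limma adjusted p = 2.79e-09) and 0.71 ± 0.13 after CL316243 (1.63-fold, limma adjusted p = 0.000125). The interaction with fasting was 1.32 ± 0.18 (limma adjusted p = 1.5e-06). The second Jund probe, 73224436 to 73224495 on the same strand, gave 1.26 and 0.81 for the genotype differences.

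Junb (chromosome 8, 87500843 to 87500902, minus strand, mm9) was the member whose highest group was AAKO CL316243, from 5.20 through 5.74 to 6.20. AAKO fasted arrays ran from 4.75 through 4.98 to 5.64, CTRL CL316243 arrays from 4.18 through 4.83 to 5.36 and CTRL fasted arrays from 3.09 through 4.03 to 4.31. Both treatments left AAKO above CTRL, by 1.12 ± 0.21 when fasted (limma adjusted p = 4.21e-05) and by 1.00 ± 0.21 after CL316243 (limma adjusted p = 0.000631), and the fasted groups did not overlap. Junb was lower in fasted than in CL316243 livers in CTRL (-0.87 ± 0.21, limma adjusted p = 0.00132) and in AAKO (-0.74 ± 0.21, limma adjusted p = 0.00305). Its interaction with fasting was not called (0.70 ± 0.30, limma adjusted p = 0.0691). It was called with normexp (0.73, limma adjusted p = 0.0449), the authors' value table (0.73, limma adjusted p = 0.0455), the replicate block (limma adjusted p = 0.0491) and a fit of the groups compared alone (limma adjusted p = 0.0385). It was also called without AAKO fed replicate 1 (0.78) or 6 (0.82) or CTRL fasted replicate 5 (0.81). The second Junb probe, well above background on 31 arrays, gave 1.73 and 1.23 for the genotype differences, and the third was not well above background on any array.

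Atf3 (chromosome 1, 192994547 to 192994606, minus strand, mm9), which is induced by many cell stresses, had the largest genotype difference of the 10 when fasted. CTRL fasted arrays ran from -4.35 through -3.73 to -1.30 and AAKO fasted arrays from -0.94 through -0.53 to 1.37, with no overlap. The closest CTRL array was replicate 2 at -1.30 and the highest AAKO array was replicate 1 at 1.37, and both stood away from the rest of their groups. Atf3 was 8.95-fold higher in AAKO (3.16 ± 0.40, limma adjusted p = 9.29e-08), and the difference was 3.57 without that CTRL array and 2.86 without that AAKO array. On fed arrays it ran from -3.13 through -2.59 to -2.10 in CTRL and from -3.28 through -2.61 to -2.27 in AAKO. Fasting raised Atf3 in AAKO by 2.42 ± 0.40 (limma adjusted p = 3.92e-06), while in CTRL the difference was -0.82 ± 0.40 and not called (limma adjusted p = 0.102). Without CTRL fasted replicate 2 that difference was -1.22 and was called (limma adjusted p = 0.00611). The interaction was 3.23 ± 0.57 (limma adjusted p = 4.38e-05).

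After CL316243 Atf3 ran from -4.53 through -3.93 to -3.54 in CTRL and from -3.65 through -2.55 to -1.19 in AAKO, and was higher in AAKO by 1.60 ± 0.40 (limma adjusted p = 0.00357). In CTRL every CL316243 array lay below every fed array, with a fitted difference of -1.40 ± 0.40, which was -0.51 after normexp background correction. Egr1 was picked out in this untested contrast and is left out here. Of the 9 other members, Atf3 (below its fed arrays) and Junb (above them) had no overlap. Of all genes 12.3% had none (5.58% higher and 6.69% lower).

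Ier3 (chromosome 17, 35959528 to 35959587, plus strand, mm9) ran from -4.49 through -3.94 to -2.14 on CTRL fasted arrays and from -2.21 through -1.88 to -0.73 on AAKO fasted arrays. The overlap came from CTRL fasted replicate 2 at -2.14, and the other 5 CTRL arrays were at -3.48 or below. It was 4.00-fold higher in AAKO (2.00 ± 0.30, limma adjusted p = 1.47e-06). After CL316243 it ran from -4.89 through -4.20 to -3.98 in CTRL and from -3.69 through -2.81 to -2.21 in AAKO, with no overlap (1.44 ± 0.30, limma adjusted p = 0.000528). Fed arrays ran from -4.60 through -3.99 to -3.65 in CTRL and from -4.13 through -3.80 to -2.73 in AAKO.

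Ier2 (chromosome 8, 87185211 to 87185245, minus strand, mm9) ran from 1.45 through 1.81 to 2.28 on AAKO fasted arrays. CTRL fasted arrays ran from -0.13 through 0.61 to 1.31, and arrays of the other 4 groups lay between 0.05 and 1.43. All AAKO fasted arrays stood above all other arrays. The genotype difference was 1.16 ± 0.18 when fasted (2.23-fold, limma adjusted p = 3.56e-06) and -0.31 ± 0.18 after CL316243 (limma adjusted p = 0.225). The second Ier2 probe, for which the design names another transcript record (chromosome 8, 87183623 to 87183681), gave a smaller fasted difference of 0.54 ± 0.20 (limma adjusted p over 36549 probes = 0.0235). On that probe the rise on fasting in AAKO was not called (0.40 ± 0.20, limma adjusted p = 0.0792), whereas the main probe gave 1.30 ± 0.18 (limma adjusted p = 2.17e-07). Nor were 2 differences between responses called on the second Ier2 probe, the genotype by fasting interaction (0.49 ± 0.28, limma adjusted p = 0.177) and the genotype difference in fasted against CL316243 livers (0.48 ± 0.28, limma adjusted p = 0.199).

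Myc (chromosome 15, 61821417 to 61821476, plus strand, mm9), a growth regulator, was the most scattered member. Fed arrays ran from -2.83 through -2.12 to 0.67 in CTRL and from -2.79 through -2.13 to 1.48 in AAKO, where replicates 1 and 6 stood at 1.17 and 1.48 and the other 4 at -1.84 or below. CTRL fasted arrays ran from -0.71 through -0.48 to 1.20 and AAKO fasted arrays from 0.68 through 1.63 to 2.39, and CTRL fasted replicate 2 made the overlap. The fasted difference was 1.74 ± 0.68 (3.33-fold, limma adjusted p = 0.034), and the call was lost without AAKO fasted replicate 1 (1.61), 3 (1.63) or 5 (1.70) and without CTRL fasted replicate 1 (1.61), 3 (1.70) or 4 (1.58). Slide as a factor ended it too (1.45, limma adjusted p = 0.0817), and with no filter on dim probes (limma adjusted p = 0.0517) and within wash batches 1 and 2 (1.52 and 1.96) it was not called.

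After CL316243 Myc ran from -1.42 through 0.65 to 1.31 in CTRL and from -3.31 through -2.31 to -0.73 in AAKO, with overlap. It was 4.38-fold lower in AAKO (-2.13 ± 0.68, limma adjusted p = 0.0208), a call lost without AAKO CL316243 replicate 3 (-1.77) or CTRL CL316243 replicate 2 (-1.84) with slide as a factor (-1.83) and within wash batch 1 (-1.18). This comparison shares its CTRL arrays with the untested contrast against fed CTRL, where the fitted difference was 1.86 ± 0.68 in all, 0.58 within wash batch 1 and 3.13 within wash batch 2. The second Myc probe (61820925 to 61820984) gave 1.57 when fasted and -1.51 after CL316243. Fasting raised Myc in AAKO by 2.70 ± 0.68 (limma adjusted p = 0.000896), and the interaction was not called (1.22 ± 0.96, limma adjusted p = 0.354).

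**Figure D2:**
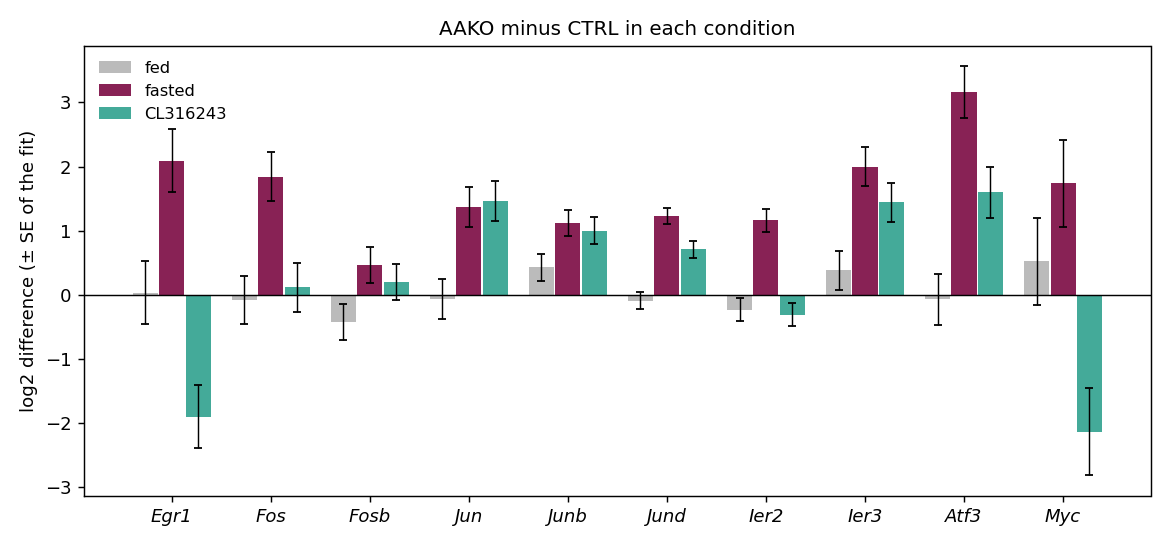
Difference between AAKO and CTRL (log2, bars, with the standard error of the fit) for each member in fed, fasted and CL316243 livers, with 6 arrays in each group. The fasted bars are all above 0, from 0.46 for Fosb to 3.16 for Atf3, and the CL316243 bars of Egr1 (-1.90) and Myc (-2.13) point down.

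The genotype difference was above 0 when fasted and below 0 after CL316243 for Egr1, Myc and Ier2, though that of Ier2 after CL316243 was not called. The difference between these genotype differences was tested after the values of Egr1 and Myc had been seen. Of the 9 members other than Egr1, 5 were called, all more positive when fasted, where 32.3% of all genes were called (12.7% in that direction and 19.6% in the other). For Egr1, which was picked out on arrays of this contrast, it was 3.99 ± 0.70, given with no test. It was 3.87 ± 0.97 for Myc (limma adjusted p = 0.00233) and 1.47 ± 0.26 for the main probe of Ier2 (limma adjusted p = 5.08e-05). For Fos it was 1.71 ± 0.53, for Atf3 1.56 ± 0.57 and for the main probe of Jund 0.52 ± 0.18. The second Jund probe was not called (0.45 ± 0.18, limma adjusted p over 36549 probes = 0.0551). Jun (-0.09 ± 0.44), Junb (0.13 ± 0.30), Fosb (0.26 ± 0.40) and Ier3 (0.56 ± 0.42) were not called. The call of Atf3 was lost in 10 of the 24 fits that left out an array, down to 1.28 without AAKO fasted replicate 1. The call of Jund was lost in 4, without AAKO CL316243 replicate 3, AAKO fasted replicate 2 or CTRL fasted replicates 4 or 5 (lowest 0.44). Both were also lost within wash batch 2 (1.08 and 0.26) and in a fit of the groups compared alone. Atf3 was lost with no filter on dim probes too. The calls of Fos (1.98) and Myc (2.7) were lost within wash batch 1. Within wash batch 2 alone 2 of all 10 members were called.

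All 10 members were called higher in fasted than in fed AAKO livers, which came from different experiments. Of all genes 63.5% were called, 27.8% higher and 35.7% lower, and the members' median difference was 1.95 beside -0.09 over all genes. The call of Fosb was lost without AAKO fasted replicate 1, as given above. In CTRL the median was 0.19 and the range -0.82 to 1.88. The interaction was called for 6 of the 9 members other than Egr1, all in the direction of a larger rise in AAKO. Of all genes 33.9% were called, 14.5% in that direction and 19.4% in the other. It was 1.44 ± 0.44 for Jun (limma adjusted p = 0.0113), 1.39 ± 0.26 for the main probe of Ier2 (limma adjusted p = 8.77e-05) and 1.62 ± 0.42 for Ier3 (limma adjusted p = 0.00316), beside the values given above for Fos, Jund and Atf3. Within wash batch 1 alone 7 of all 10 members were called, and within wash batch 2 alone 2 were. The stress transcripts Hspa1a and Hspa1b, which encode inducible heat shock proteins, differed in some of these comparisons, not always in the direction of the members. Hspa1a was lower in fasted than in fed CTRL livers by -3.84 ± 0.38 and its fasting difference in AAKO was -0.08 ± 0.38, while Hspa1b was lower in both genotypes (-3.84 and -3.46). Between fasted genotypes Hspa1a was higher in AAKO by 3.30 ± 0.38 (limma adjusted p = 1.21e-08) and Hspa1b was not called (-0.18 ± 0.29). In fasted against fed AAKO livers, 5 of 7 neutrophil markers were higher and 1 lower, and 3 of 6 endothelial markers were higher and 2 lower. There, 3 of 6 Kupffer cell markers were lower and 0 higher, and 3 of 4 monocyte markers were lower and 1 higher. The part of such stress and of these cells in the members' levels was not tested.

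**Figure D3:**
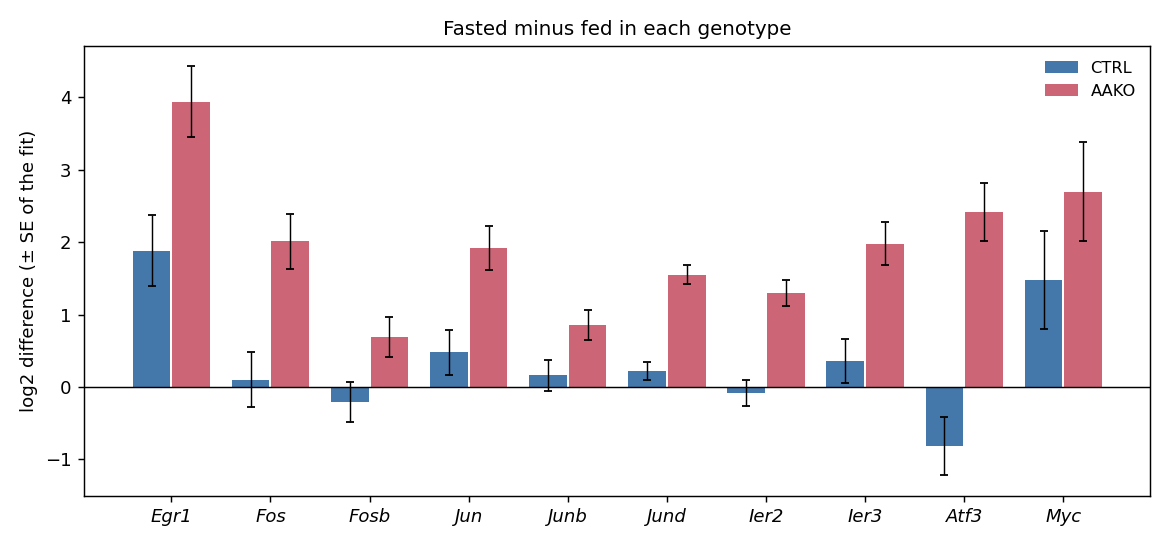
Difference between fasted and fed livers (log2, bars, with the standard error of the fit) for each member in CTRL and AAKO, with 6 arrays in each group; fasted and fed mice came from different experiments. The AAKO bars run from 0.69 (Fosb) to 3.94 (Egr1), and the CTRL bars from -0.82 (Atf3) to 1.88 (Egr1).

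CL316243 in AAKO livers raised 5 members against fed AAKO, Egr1, Jun, Junb, Jund and Ier3, where 31.4% of all genes were called (15.7% in each direction). Junb rose by 1.60 ± 0.21 (limma adjusted p = 6.61e-07), Jun by 0.97 ± 0.31, Jund by 0.74 ± 0.13 and Ier3 by 0.83 ± 0.30. The Ier3 call was lost in 7 of 12 fits without 1 array, down to 0.68 without AAKO CL316243 replicate 6, and with the authors' value table (0.49), with no filter on dim probes and in a fit of the groups compared alone. In the same comparison 5 of 6 Kupffer cell, 3 of 6 endothelial and 3 of 6 stellate cell markers were lower, and their part in the result was not tested. Within wash batch 1 alone 5 members were called and within wash batch 2 alone 1. Against CL316243 in the same genotype and experiment, fasting left 8 members higher and Junb lower in AAKO (59.9% of all genes called, 26.2% higher and 33.8% lower), among them Myc by 3.49 ± 0.68 and Atf3 by 2.15 ± 0.40. Egr1 was among the 8 (1.19 ± 0.49, limma adjusted p = 0.0382), but its call was lost in 7 of 12 fits without 1 array, down to 0.99 without AAKO fasted replicate 1, with slide as a factor (1.12), with no filter on dim probes and within either wash batch. Ier2 was among the 8 by its main probe, but its second probe was not called (0.23 ± 0.20, limma adjusted p over 36549 probes = 0.321). In that comparison 4 of 7 neutrophil and 4 of 6 endothelial markers were higher. In CTRL, of the 9 members other than Egr1, fasting left Jun higher (1.04 ± 0.31) and Junb lower than CL316243 did, where 36.8% of all genes were called (19.2% higher and 17.6% lower). The Jun call was lost within wash batch 1 (0.44) and in a fit of the groups compared alone. Egr1, with no test here, differed by -2.80 ± 0.49.

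Genes around the members in the same pathways were read from lists chosen from general knowledge. Between fasted genotypes, the comparison of all counts in this paragraph, 21.3% of all genes were called higher and 28% lower. Of 16 further immediate early factors 13 were tested (not Egr3, Egr4 or Fosl1), and 8 were higher and 1 lower in fasted AAKO than in fasted CTRL livers, with a median of 1.08. Maff, a small bZIP factor, was higher by 2.36 ± 0.28, Csrnp1 by 2.04 ± 0.25, and the zinc finger factor Klf4 by 1.70 ± 0.28, whereas Ier5l was lower (-0.54 ± 0.13). Nr4a1, an orphan nuclear receptor, missed the threshold (1.08 ± 0.47, limma adjusted p = 0.0567). Of 12 feedback regulators of ERK signalling, 8 were higher and Dusp6 was lower. The phosphatases that switch off MAP kinases, Dusp8, Dusp1, Dusp4 and Dusp5, were higher by 2.51 ± 0.29, 2.29 ± 0.35, 2.07 ± 0.31 and 1.76 ± 0.20, and Dusp6, the phosphatase that acts on ERK in the cytoplasm, was at -0.95 ± 0.25. Of 10 genes for mRNA decay and growth arrest, 8 were higher and none lower, led by Btg2 (2.77 ± 0.36), Gadd45a (2.54 ± 0.41) and Gadd45g (1.91 ± 0.72).

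Of 12 cAMP and CREB targets, 7 were higher in fasted AAKO livers and none lower, with a median of 0.76. Sik1, a kinase that restrains CREB coactivators, was higher by 1.29 ± 0.29, the clock gene Per1 by 1.23 ± 0.28, and Tat, tyrosine aminotransferase, by 1.14 ± 0.13. The gluconeogenic genes Pck1 (0.41 ± 0.18) and G6pc (0.77 ± 0.39) were not called. Of 12 upstream factors and kinases, 4 were higher and 4 lower, shares near those of all genes (21.3% higher and 28% lower). Srf (0.50 ± 0.10) and the CREB coactivator Crtc2 (0.87 ± 0.08) were higher, and the ternary complex factor Elk3 (-0.65 ± 0.18) and the kinase gene Mapk3 (-0.48 ± 0.11) were lower. None of these 5 lists had a member called by limma between genotypes in fed livers, where 1 further immediate early factor and 2 cAMP targets had an unadjusted p under 0.05 and 0 genes of the other 3 lists did.

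Markers of other cells were also read between fasted genotypes, where 21.3% of all genes were called higher and 28% lower. Of 7 neutrophil markers 5 were higher in fasted AAKO than in fasted CTRL livers, among them S100a8 (3.60 ± 1.02) and S100a9 (3.38 ± 0.97), while Ly6g (-0.27 ± 0.12) and Mpo (-0.11 ± 0.28) were not called. The mean of the 7 ran from -1.87 to 0.55 on AAKO fasted arrays and from -4.59 to 0.19 on CTRL fasted arrays. Its highest values in the 2 groups were on AAKO replicate 1 and CTRL replicate 2, and each of these arrays was also the highest of its group for 9 of the 10 members (all but Jund in AAKO and all but Junb in CTRL). On fed AAKO arrays, the mean of the neutrophil markers was highest on replicates 6 (-0.07) and 1 (-1.36), the arrays highest in Myc, and at most -3.04 on the other 4. Without CTRL fasted replicate 2 the count of members higher in fasted AAKO livers was 9, and without AAKO fasted replicate 1 it was 8. Of 6 liver endothelial markers 3 were higher and none lower (mean of the 6 from 1.60 to 1.93 in AAKO and 0.65 to 1.70 in CTRL), and none of 6 Kupffer cell markers tested was called by limma, with 0 at an unadjusted p under 0.05 (mean from -0.33 to 2.11 and 0.29 to 2.11). Of 6 stellate cell markers 2 were higher, and of 4 monocyte markers 1 was higher and 1 lower, counts near the shares of all genes. Of 5 cholangiocyte and 3 T cell markers tested 2 each were lower. The part of these cells in the members' levels was not tested.

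Within groups, arrays high in 1 member tended to be high in others. All 45 pairs of members had a positive Pearson correlation of their deviations from the group means over the 36 arrays, and 25 had a Benjamini-Hochberg adjusted permutation p under 0.05 (two-sided, 100000 shuffles within groups). The share over pairs of all genes was not computed, and wash batch was not removed from the deviations. Of the 25, several were not under 0.05 by rho. They were Fosb and Jun (adjusted permutation p = 0.132), Jund and Atf3 (0.113), Junb and Myc (0.0825), Jund and Myc (0.0658) and Fos and Junb (0.0608). Egr1 and Jun, Fos and Fosb, Junb and Ier2, and Ier2 and Myc were not either (adjusted permutation p = 0.0531 for each). The closest pair was Egr1 and Fos (r = 0.776, adjusted permutation p = 0.00045; rho = 0.762, adjusted permutation p = 0.000225; raw permutation p = 1e-05 for both, the smallest that the shuffles can give). Without the 2 arrays farthest from the median of Egr1 its r was 0.714, and within wash batches 1 and 2 it was 0.816 and 0.715. Jun and Ier2 followed (r = 0.743, adjusted permutation p = 0.00225; rho = 0.644), and Jun and Atf3 were at r = 0.68 (adjusted permutation p = 0.00045; rho = 0.693), with 0.622 without the 2 farthest arrays and 0.525 and 0.736 within wash batches. Jund and Atf3 (r = 0.57, adjusted permutation p = 0.0313; rho = 0.353) rested on 2 arrays, without which r was 0.253, and within wash batch 1 it was 0.0558. The lowest was Atf3 and Myc (r = 0.0356, rho = -0.0605), at r = -0.264 within wash batch 1, where some other pairs were negative too.

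**Figure D4:**
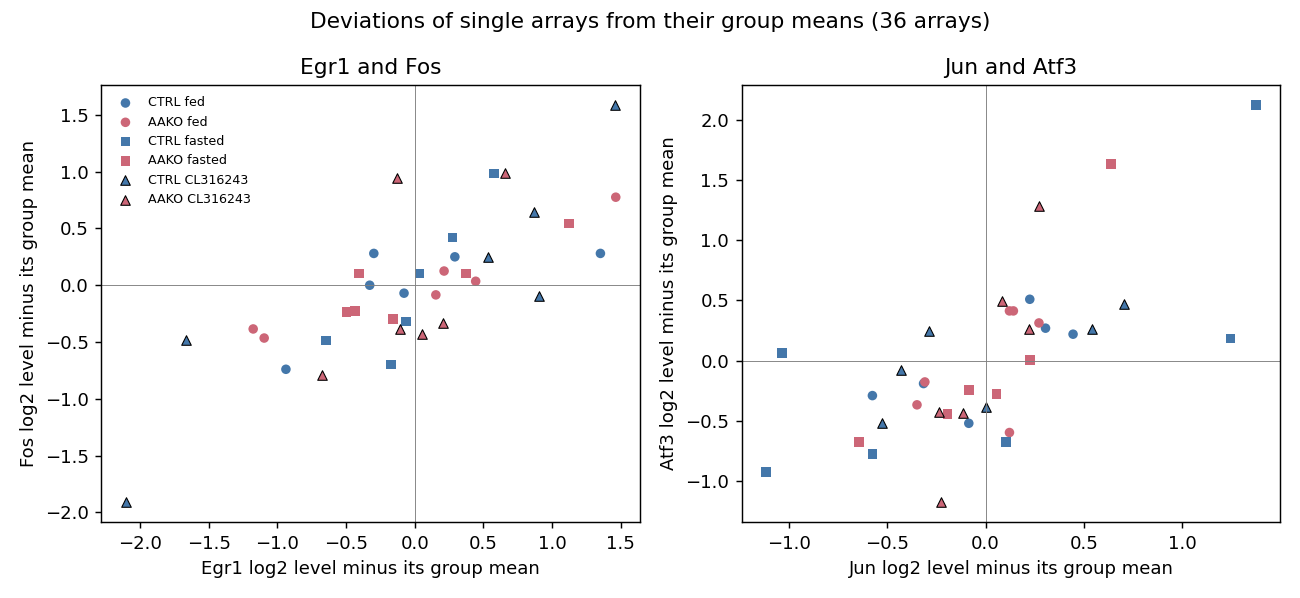
Deviation of each of the 36 arrays from its group mean (log2) for Egr1 against Fos and for Jun against Atf3, with colour for genotype and symbol for condition. The points run from lower left to upper right in both panels (r = 0.776 and 0.68), and the highest Atf3 deviation is on CTRL fasted replicate 2.

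Among 24209 other genes the pattern most like a member's was found by the same measure over the 36 arrays, with no test. It was Cebpd for Egr1 (r = 0.747), Zfp36l2 for Fos (0.741), Pim3 for Jun (0.763), Btg2 for Junb (0.81) and Ier2 (0.72), and Dusp8 for Jund (0.806). It was Tiparp for Ier3 (r = 0.856), Rhob for Atf3 (0.79) and Foxq1 for Myc (0.877). For Fosb the nearest gene with a symbol was Pcsk1 (r = 0.645, rho = 0.217). Btg2 was among the nearest 3 for Fos, Jun, Junb and Ier2.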

How the data were processed

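Liver RNA was read on 36 Agilent one-colour arrays (design 074809) with Feature Extraction 10.10.1.1, per the submitters' processing notes and the file headers; the probe coordinates are on mm9, per the file headers. The deposited spot intensities were processed by that software before deposit (background subtraction, per the file headers), and its deposited outlier and background marks were used; the authors' own deposited value table holds log2 values, whose normalization is not given in the sources used here beyond limma being named. Outlier spots (0.127%) and control spots were left out. Intensities were put on the log2 scale, each array was scaled to its 75th percentile, spots of a probe were averaged, and 32994 probes were named through RefSeq accessions (GRCm38.p6, names only). The probe with the highest mean stood for a gene. A gene was tested if well above background on at least 5 of 6 arrays of a group. All groups entered 1 limma 3.58.1 fit (R 4.3.3) with wash batch, checked on simulated data.

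All 10 members are named with every probe. Of each list the members called with the largest differences are named (up to 4 per direction, with uncalled neighbours chosen after their values were seen), and of the genes with similar patterns the nearest 3 per member. The members and lists were chosen with earlier results of these data known. Alternatives were background correction, quantile scaling, the authors' table, filters, probes, slide and wash batch terms, batches apart, and leaving out each array.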

Additional observations from a re-analysis of the deposited data

Results flagged for a closer look

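In 6 of 60 combinations of member and group, 1 array stood apart from the other 5 by Dixon's test, where chance flags about 1 in 20. CTRL fasted replicate 2 was flagged for Atf3 (-1.30) and Myc (1.20), and AAKO fasted replicate 1 for Fosb (-0.56) and Atf3 (1.37). The others were CTRL fed replicate 5 for Fos (-2.87) and CTRL CL316243 replicate 4 for Ier3 (-4.89).

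The response to fasting differed between genotypes by the test of the interaction in limma for Fos (1.91), Jun (1.44), Jund (1.32), Ier2 (1.39), Ier3 (1.62) and Atf3 (3.23). The genotype difference differed between fasted and CL316243 livers, by a test added after the values had been seen, for Fos (1.71), Jund (0.52), Ier2 (1.47), Atf3 (1.56) and Myc (3.87). For Jund and Ier2 these are the main probes, and the second probes were not called in that contrast. The values of Egr1 in the former and the latter contrast (2.06 and 3.99) are descriptions, since the gene was picked out between CTRL CL316243 and CTRL fed arrays.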

How the results depend on the processing

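Counts here include Egr1, also where the CTRL CL316243 or CTRL fed arrays on which it was picked out enter. Of the 57 calls of single members, 1374 of 1467 values under other settings or without 1 array stayed called in the same direction, 93 were no longer called and 0 changed sign. The number of members called, fasted against fed in CTRL, was 2 with the authors' value table, with quantile normalization and within wash batch 2. Within wash batch 2 alone, with 3 arrays a group, it was 1 between genotypes after CL316243, 1 for CL316243 against fed in AAKO, 5 for fasted against CL316243 in AAKO, 2 for the interaction with fasting and 2 for the genotype difference in fasted against CL316243 livers; fewer arrays enter these fits. Leaving out each array gave 0 to 0 calls between fed genotypes, 8 to 9 between fasted genotypes, 6 to 7 between genotypes after CL316243, 1 to 2 and 9 to 10 for fasting in CTRL and AAKO, 4 to 6 for CL316243 in AAKO, 3 to 4 and 8 to 9 for fasted against CL316243 in CTRL and AAKO, 7 to 8 for the interaction, and 4 to 6 for the genotype difference in fasted against CL316243 livers. The 2 calls in CTRL on fasting without CTRL fasted replicate 2 were 1 higher and 1 lower. The replicate numbers did not pair the samples (at most 3 of 6 pairs correlated above 0.1 in any comparison); with the replicate block the counts were 0, 9, 7, 1, 10, 6, 3, 9, 8 and 6 in the order just given. Values that changed sign were all uncalled in the report, and the cause was not tested. For fasted against CL316243 in CTRL, Fosb was -0.05 with normexp, -0.03 with quantile normalization and -0.02 with slide as a factor, and -0.02 to 0.10 without 1 array. Within wash batch 1, Fosb was -0.18 between fasted genotypes, -0.20 for fasted against CL316243 in AAKO and -0.25 for the genotype difference in fasted against CL316243 livers, where Jun was 0.33. There too, Fos, Jun and Jund were -0.42, -0.42 and -0.01 for fasting in CTRL, Atf3 and Myc -0.22 and 0.71 for CL316243 in AAKO, and Myc 0.12 for fasted against CL316243 in CTRL. Within wash batch 2, Ier2 was 0.30 for fasting and 0.04 for fasted against CL316243 in CTRL, and Myc -0.40 for the interaction. Jun's genotype difference in fasted against CL316243 livers was 0.06 with slide as a factor and -0.28 to 0.18 over the fits without 1 array; Junb's was -0.03 to 0.24 and Fosb's -0.17 to 0.42. Leaving out an array also turned Fos between genotypes after CL316243 (range -0.26 to 0.50) and on fasting in CTRL (-0.08 to 0.21), Ier2 on fasting in CTRL (-0.20 to 0.06) and Fosb for fasted against CL316243 in AAKO (-0.12 to 0.46). The difference of Atf3 between CL316243 and fed CTRL livers, -1.40, was -0.51 with normexp and -0.94 in the authors' value table. The authors' value table moved the median of all genes from -0.08 to 0.05 for fasted against CL316243 in AAKO and from -0.09 to 0.02 for the genotype difference in fasted against CL316243 livers. The members' main probes were well above background on all 36 arrays.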

Other observations

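Other lists had values that the report does not give. Of 12 bZIP and bHLH partners, 6 were higher and 1 lower in fasted AAKO than in fasted CTRL livers, where 21.3% of all genes were higher and 28% lower. Jdp2, a bZIP repressor of AP-1, was higher by 1.30 ± 0.27, and Mxd1, Max and Mnt, of the Myc network, by 1.26 ± 0.15, 0.58 ± 0.09 and 0.64 ± 0.15, while Batf3 was lower (-0.91 ± 0.27). Of 9 secreted targets tested, Hbegf, a ligand of the EGF receptor, was higher by 1.49 ± 0.21 and Edn1, endothelin, by 1.18 ± 0.46, and Cyr61 was lower (-1.47 ± 0.35).

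After CL316243, 5 of the 13 further immediate early factors tested were higher in AAKO than in CTRL livers and 2 lower. Of all genes 13.4% were higher and 11.3% lower. Nr4a1 (1.56) and Csrnp1 (1.02) were among those higher. Klf10 (-1.30) and Maff (-0.88) were lower, the direction of Egr1 and Myc there. Among ERK feedback regulators, Dusp8 (1.38) was the single one of 12 called, where 24.8% of all genes were. The neutrophil marker list had none of 7 called in that comparison in limma and 1 at an unadjusted p under 0.05, with Cxcr2 (1.73) the closest at an adjusted p of 0.0691.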
